A study of Mus musculus with 24 samples.

Results

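The fetal program genes examined here were Lin28b, the 3 Igf2bp genes (Igf2bp1, Igf2bp2 and Igf2bp3), Hmga1, Hmga2, Igf1r and Dis3l2. These 8 genes were chosen by name and found among the 47069 mouse gene identifiers of the deposited count table through the GENCODE M21 annotation, which named 46488 of them. Total RNA was sequenced from mouse fetal liver cells of mid-gestation embryos (E12.5-13.5). All groups came from a Cas9-EGFP knock-in strain at the ROSA26 locus, where the broadly active CAG promoter drives Cas9 expression, and all carried sgGata1, a guide RNA for Gata1. The labels describe these as Gata1s cells, in which GATA1, a transcription factor of megakaryocytes and red cells, is made without its amino-terminal part. The second transgene was either miR-125b, a microRNA, or miR-ctrl, called control here. Both arms received doxycycline at 1 µg/mL for 48 h (day 2), for 10 days (day 10) or for 13 days (day 13 continued), or had it removed on day 10 and were collected on day 13 (day 13 withdrawal). Each of the 8 groups had 3 libraries, 24 in all. The labels do not say whether the replicates came from separate embryos or cultures, so the p-values measure the spread between these libraries, which may be technical.

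LIN28B is an RNA-binding protein of embryonic and fetal cells that blocks the maturation of the let-7 microRNAs. Let-7 in turn represses a set of growth genes through their 3′ UTRs, among them Lin28b itself, the Igf2bp genes, Hmga2 and Igf1r. In blood formation LIN28B and IGF2BP3 are known as marks of fetal rather than adult progenitors.

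MicroRNAs recognise targets mainly through the seed, bases 2 to 8 of the mature strand. The mature miR-125b and a let-7 representative are printed because their seeds define the matches sought in the members, with the seed in capitals (RefSeq, GRCm38.p6).
mmu-miR-125b-5p: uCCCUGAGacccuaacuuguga
mmu-let-7a-5p: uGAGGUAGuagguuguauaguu
The miR-125b seed CCCUGAG was shared by 2 mature sequences, miR-125b and miR-125a. The let-7a seed GAGGUAG was shared by 10 mature sequences of the let-7 and miR-98 family.

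The longest annotated 3′ UTR of each member was searched on the transcript strand for 7-base matches to the seeds, CTCAGGG for miR-125b and CTACCTC for let-7. A match followed by A was counted as an 8-base match. The 3′ UTRs of 3 of the 8 members, Lin28b, Igf2bp3 and Dis3l2, held 1 miR-125b match each, and that of Lin28b was the 8-base form. The sequences around these matches are shown because they are all the miR-125b matches among the members (GENCODE M21 transcripts, GRCm38, match in capitals).
Lin28b: ggacaaagaactttgCTCAGGGAacata
Igf2bp3: ctctcctgcttgggtCTCAGGGgagata
Dis3l2: tttggtttttaacaaCTCAGGGgtttgt
The Lin28b match lies at chr10:45378798-45378805 on the minus strand, the Igf2bp3 match at chr6:49085532-49085538 on the minus strand and the Dis3l2 match at chr1:87049845-87049851 on the plus strand. Of 11665 tested genes with an annotated 3′ UTR, 15.9% held the 7-base miR-125b match and 5.6% the 8-base form. Longer UTRs hold more matches by length alone. Among UTRs within 20% of the length of that of Lin28b (4445 bases), 12.1% held the 8-base match. The 7-base match was in 21.3% of UTRs as long as that of Igf2bp3 (2119 bases) and in 4.79% of those as long as that of Dis3l2 (350 bases).

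Let-7 matches were in 7 of the 8 members, all but Dis3l2, against 10.6% of tested genes with a UTR. Lin28b, the Igf2bp genes, Hmga2 and Igf1r are known let-7 targets. The choice of genes thus shaped this count, and it is no test of enrichment. Among UTRs within 20% of the member's length the share with a let-7 match was 24.7% for Lin28b, 35.7% for Igf2bp1, 38.3% for Igf1r and 16.5% for Hmga2. It was 13.3% for Igf2bp2, 14.1% for Igf2bp3 and 8.92% for Hmga1. Lin28b, Igf2bp1 and Hmga2 had 4 each, Igf1r had 2, and Igf2bp2, Igf2bp3 and Hmga1 had 1 each. The 8-base let-7 match of Lin28b nearest to its stop codon is shown as the example, at chr10:45381022-45381029 on the minus strand.
Lin28b let-7 match: acccgggcgggaagtCTACCTCAtgcaa
Lin28b and Igf2bp3 were the 2 members with matches to both seeds. A match describes the letters in this window and does not show binding.

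**Figure D1:**
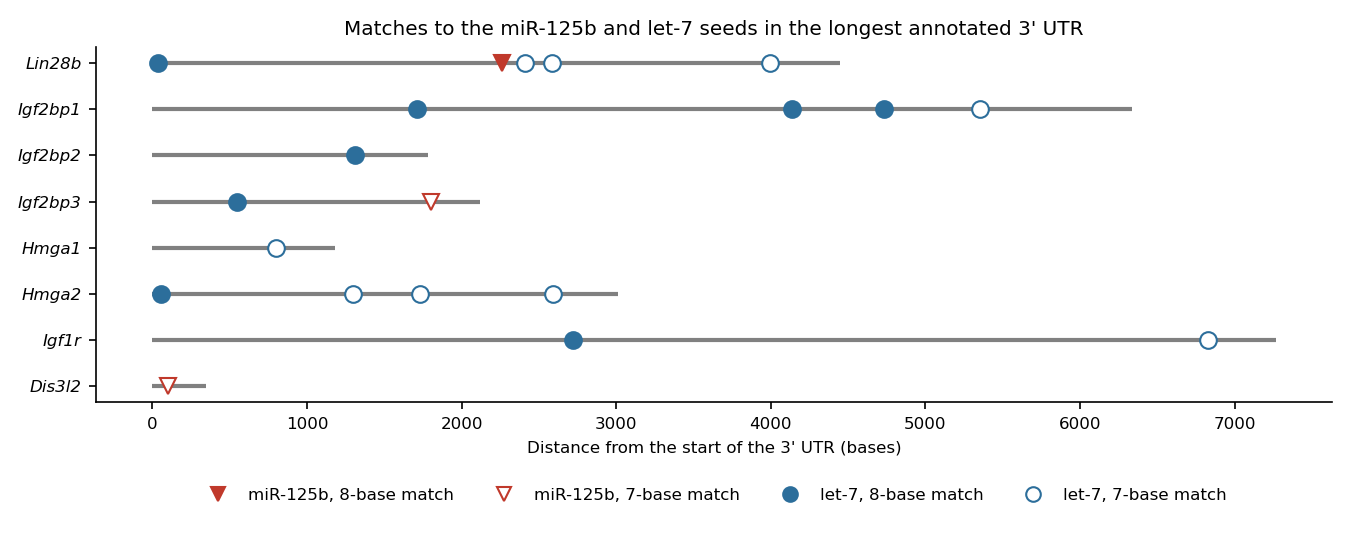
Each line is the longest annotated 3′ UTR of one member, drawn to scale in bases from its start. Red triangles mark matches to the miR-125b seed and blue circles matches to the let-7 seed, filled for 8-base and open for 7-base matches; 3 members carry a triangle and 7 carry a circle.

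Libraries held 14694900 to 23755245 counts. Expression is given as CPM, the count scaled to a common library total after TMM correction for library composition, and as CPM per kilobase of exon where genes are compared with each other. Gata1, the edited gene, was counted at 194 to 514 CPM, and gene counts do not separate its short form. Mir125b-1 and Mir125b-2 were at 0 in all 24 libraries, each allowing up to 3 counts, so the construct could not be checked in these data. Markers of 6 other or expected cell types were summed. Megakaryocyte genes gave 2854 to 7426 CPM and erythroid genes 69.4 to 174 CPM per library. The 8 hepatoblast genes summed to 2.01 to 4.88 CPM, most of it Afp (1.36 to 4.45 CPM). Ttr, Ahsg and Fgb were at 0 in every library and Alb and Hnf4a had at most 1 count. Mast cell and basophil genes gave 24 to 361 CPM and endothelial and stromal genes 1.41 to 16.3 CPM. In bulk samples, fewer cells of a type and less RNA per cell cannot be told apart. Arid3a, which the series title names as a miR-125b target, stood at 52.2 CPM in the libraries labelled miR-125b day 13 continued and at 31.2 CPM in those labelled miR-125b day 13 withdrawal. The lower value belonged to the set without doxycycline, so day 13 groups are named by label only. Whether these 2 labels were exchanged in the miR-125b arm could not be settled from these data. An exchange would give the values of each of these groups to the other and turn the direction of any comparison between them.

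The members differed widely in level. Hmga1, which encodes a small chromatin protein that bends AT-rich DNA, was by far the highest per length, at a mean of 418 CPM per kb and 888 CPM (583 to 1221). Igf1r, the receptor for insulin-like growth factors, followed at 8.38 CPM per kb. Igf2bp3 at 5.13 and Lin28b at 5.05 CPM per kb came next, and Dis3l2, the exonuclease that degrades uridylated let-7 precursors, at 2.81. The ranges over libraries of neighbours among these 4 genes overlapped. Hmga2, a relative of Hmga1, stood at 0.0463 and Igf2bp2 at 0.0413 CPM per kb, with overlapping ranges. Igf2bp1 had 4 counts in all 24 libraries together and was at 0 in 22 of them, which allows up to 3 counts in each. Of the mRNA-binding Igf2bp family, Igf2bp3 was thus the one member with more than 14 counts in any library. The paralog Lin28a reached at most 3 counts in a library, against 461 to 1235 counts of Lin28b.

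**Figure D2:**
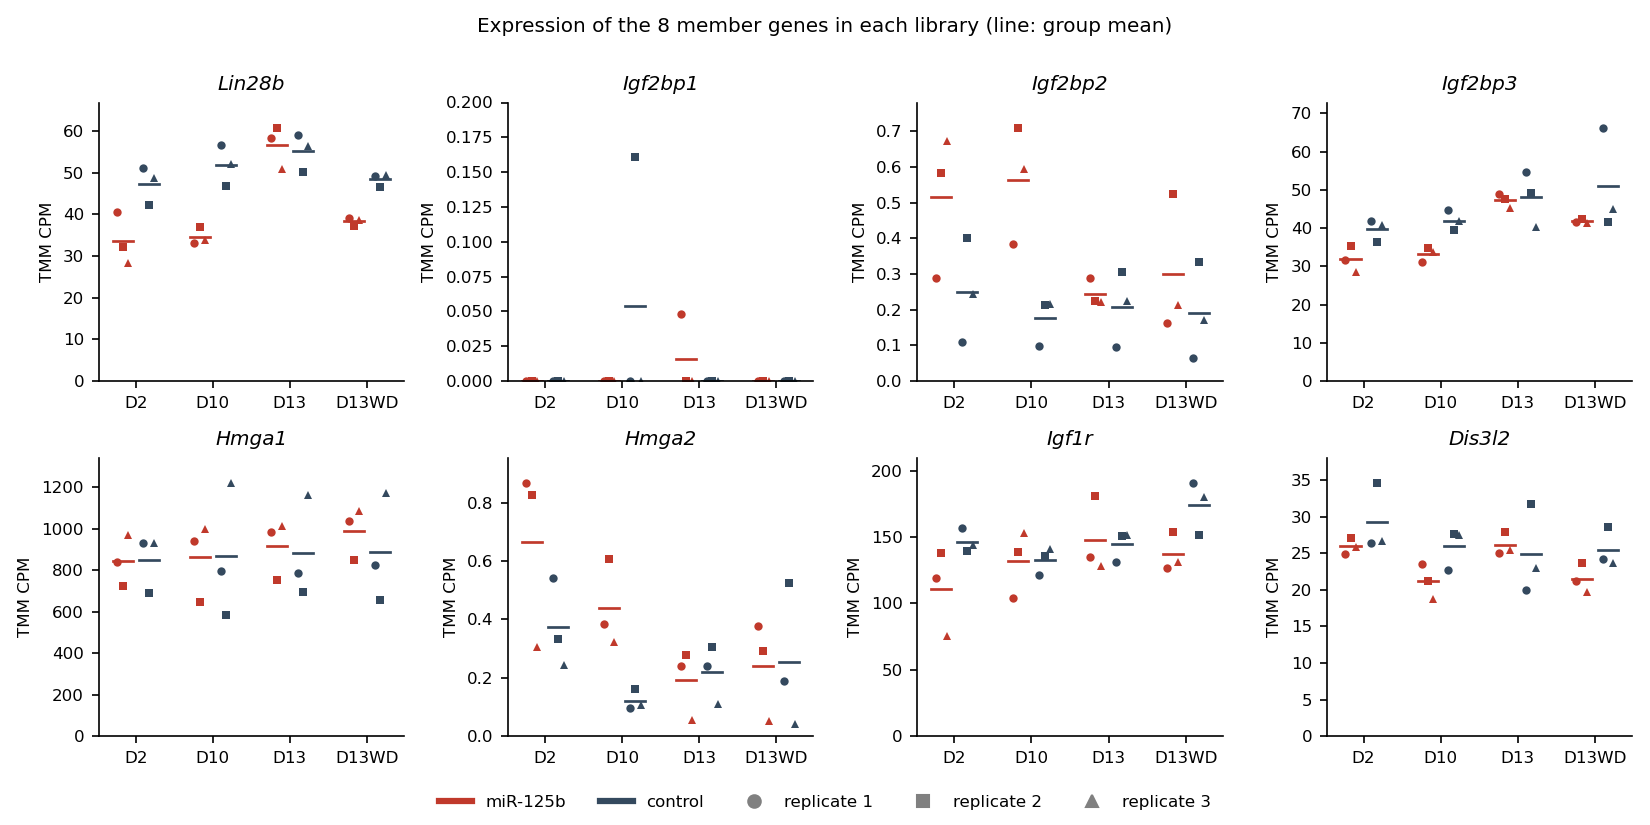
Each panel gives one member's level in TMM CPM (linear axis from 0) in the 24 libraries, by condition (D2, D10, D13 continued, D13WD withdrawal), with miR-125b in red, control in blue, the replicate number as symbol and the group mean as a line. The miR-125b values of Lin28b lie below the control values of the same condition at D2, D10 and D13WD and overlap them at D13.

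Of the 8 members, 7 had enough counts to be tested, and Igf2bp1 did not pass the filter on low counts. One edgeR quasi-likelihood model covered all 24 libraries. It has no term for the replicate number, although libraries with the same number deviated together. The p-values were adjusted over 13419 genes by the Benjamini-Hochberg method, and an adjusted p under 0.05 is called a change. Values after ± are SDs for levels (n = 3) and standard errors for log2 fold changes. At day 2, 0 of 7 tested members were called in miR-125b against control, beside 0% of all tested genes; 3 members (Lin28b, Igf2bp3, Igf1r) had an unadjusted p under 0.05 and DESeq2 called 0. At day 10, 1 member was called, Lin28b, beside 0.872% of all genes. That share was 117 genes, and it moved with the library left out. Dropping control replicate 1 or 3 left 1 gene called, while dropping control replicate 2 gave 187. In the miR-125b group, dropping replicate 3 left 2 genes, dropping replicate 1 left 17, and dropping replicate 2 gave 799. With the replicate number as a block, Igf2bp2 was called too, beside 8.63% of all genes. Igf2bp2 had passed the filter on low counts only through miR-125b libraries. In the libraries labelled day 13 continued, 0 members were called by edgeR or DESeq2 and 0 had an unadjusted p under 0.05, beside 0% of all genes. In those labelled day 13 withdrawal, 0 were called by edgeR or DESeq2, with 1 unadjusted (Lin28b), beside 0.119%. For the effect averaged over the 4 conditions, 1 member was called (Lin28b, beside 1.28%). With the block 3 were called (Lin28b, Igf2bp2, Igf2bp3), beside 6.39%.

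Lin28b (ENSMUSG00000063804, chr10:45376620-45486395, minus strand) lay below every control library of the same condition in 3 of the 4 conditions. The difference passed the test in 1 of them, day 10, with and without the replicate block. At day 2 its 3 miR-125b libraries had 40.5, 32.1 and 28.2 CPM and its control libraries 51.0, 42.3 and 48.7. The groups did not overlap, as was true in the lower direction of 6.22% of tested genes. The difference was -0.49 ± 0.11 on the log2 scale (edgeR adjusted p 0.768, and 0.138 with the block). At day 10 the miR-125b libraries had 33.2, 37.0 and 33.8 CPM and the control libraries 56.7, 46.8 and 52.2. Again no miR-125b library reached the lowest control, as in 10.5% of tested genes at that time. Lin28b fell by 0.58 on the log2 scale (SE 0.11, edgeR adjusted p 0.0262), to 0.668 times control. Leaving out 1 library at a time ended this call in 4 of 6 cases: miR-125b replicate 1 (adjusted p 0.104) or 3 (0.197), and control replicate 1 (0.125) or 3 (0.121). So did fitting only the 2 day 10 groups (0.294). None of these fits used the replicate number as a block. With the block and all libraries, the edgeR adjusted p of Lin28b was 0.00309, beside 8.63% of all genes called.

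In the libraries labelled day 13 withdrawal, Lin28b had 39.2, 37.1 and 38.6 CPM with miR-125b against 49.3, 46.5 and 49.4 in control. The groups did not overlap, as in 5.62% of genes. The difference was -0.34 ± 0.11 on the log2 scale (edgeR adjusted p 0.356, and 0.0978 with the block). In the libraries labelled day 13 continued, the miR-125b values of 58.4, 60.8 and 50.9 CPM overlapped the control values of 59.0, 50.2 and 56.3. The log2 fold change there was 0.04 ± 0.11 (edgeR adjusted p 0.999). Averaged over the 4 conditions, Lin28b fell by 0.34 on the log2 scale (SE 0.057, edgeR adjusted p 0.00378), with 0.00084 to 0.0103 over the 24 fits that each left out 1 library. With the block its edgeR adjusted p was 0.000297, beside 6.39% of all genes called. By replicate number, miR-125b was below control in 3 of 3 pairs at day 2, day 10 and day 13 withdrawal and in 2 of 3 at day 13 continued. The average covers conditions whose libraries share replicate numbers.

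Markers of 2 other cell types were set beside Lin28b in each condition. The summed granulocyte and macrophage genes (8 listed, 7 tested) gave 50 to 75.8 CPM with miR-125b and 32.3 to 44.3 in control at day 2, and 46.4 to 108 against 25.8 to 36.8 at day 10. In the libraries labelled withdrawal they gave 53.3 to 65.8 against 25.4 to 47.0 CPM, and in those labelled continued 35.8 to 54.7 against 22.1 to 48.9. The sums thus did not overlap in the 3 conditions where Lin28b did not, and none of the 8 marker genes was at 0 in all libraries. Mpo was called higher at day 10 (log2 fold change 5.10 ± 0.85, edgeR adjusted p 0.0150) and in the libraries labelled withdrawal (6.93 ± 0.97, edgeR adjusted p 0.00435). In those labelled continued it had 5.28 ± 0.90 and was not called (edgeR adjusted p 0.183). Mpo and Ctsg were called higher in the average (edgeR adjusted p 2.5e-05 and 0.00286). The 7 mast cell and basophil genes were all tested, and all 7 had higher fitted levels with miR-125b at day 2. Their sums there were 114 to 229 CPM with miR-125b and 88.8 to 126 in control, which overlapped, as they did in the other conditions. Mcpt8 and Prss34 of this list were called higher in the average (edgeR adjusted p 0.00317 and 0.00238). Fitted levels of 3 of the 7 were lower at day 10, and of 5 in the libraries labelled continued. In those labelled withdrawal and in the average, 2 of the 7 were lower. With the block, edgeR called 4 of the 7 tested granulocyte and macrophage genes higher in the average, beside 6.39% of all genes. Of 9 megakaryocyte genes it called Gp1ba, Gp5 and Gp9 lower and Ppbp higher there, and of 6 tested erythroid genes Hba-a1 lower. The part of any of these cell types in the result was not tested.

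Igf2bp3 (ENSMUSG00000029814, chr6:49085223-49214957, minus strand), which binds and stabilises fetal growth mRNAs, also had lower means with miR-125b, by smaller differences. At day 2 it had 31.8, 35.4 and 28.4 CPM with miR-125b and 42.0, 36.4 and 40.8 in control, a log2 fold change of -0.32 ± 0.14 (edgeR adjusted p 0.929). At day 10 the values were 31, 34.9 and 33.8 against 44.6, 39.5 and 41.8 CPM, or -0.34 ± 0.14 (edgeR adjusted p 0.208). The groups did not overlap at either time. In the lower direction this held for 6.22% of tested genes at day 2 and 10.5% at day 10. Neither difference passed the test. In the libraries labelled day 13 continued Igf2bp3 had 48.9, 47.5 and 45.2 CPM with miR-125b, within the control range of 40.2 to 54.7. In those labelled withdrawal it had 41.5, 42.4 and 41.4 CPM with miR-125b. Control there had 66.2, 41.6 and 45.1 CPM, so the groups overlapped and the high control mean rested on replicate 1. The log2 fold change of -0.29 ± 0.14 in that condition became -0.053 without it. The average effect was -0.24 ± 0.069 (edgeR adjusted p 0.102), and passed the threshold with the block (0.0240), in DESeq2 (0.0497) and without control day 13 withdrawal replicate 2 (0.0409). Of all tested genes the block called 6.39% in the average, and DESeq2 called 357 of 13419. Igf2bp3 shares 1529 of its 8159 exonic bases with Malsu1 on the opposite strand, and without a statement of strandedness their reads cannot be told apart there. Malsu1 stood at 19 to 32.4 CPM, with log2 fold changes of 0.08 at day 2 and 0.11 at day 10.

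Igf2bp2 (ENSMUSG00000033581, chr16:22059009-22163299, minus strand), a paralog with the same RNA-binding domains that persists in adult tissue, was near the detection limit and ran the other way. It had 5, 12 and 11 counts with miR-125b and 2, 6 and 5 in control at day 2. At day 10 it had 6, 14 and 11 counts against 2, 4 and 4. The day 10 groups did not overlap in the higher direction, as in 9.14% of genes. Its log2 fold change there was 1.66 ± 0.60 (edgeR adjusted p 0.154, and 0.0392 with the block). The average effect was 0.89 ± 0.31 (edgeR adjusted p 0.199, and 0.0336 with the block). At day 13 the groups overlapped under both labels, with log2 fold changes of 0.26 ± 0.64 (continued) and 0.58 ± 0.62 (withdrawal). These folds rest on 1 to 14 counts per library. Igf2bp2 passed the filter on low counts only through miR-125b libraries, as no control library had more than 7 counts. The values that let it be tested are thus part of the difference tested, and its calls with the block are no separate support. Igf2bp1 (ENSMUSG00000013415, chr11:95957163-96005940, minus strand), the paralog with 3 of its 4 let-7 matches in the 8-base form, had its 4 counts in control day 10 replicate 2 (3 counts) and miR-125b day 13 continued replicate 1 (1 count).

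Hmga1 (ENSMUSG00000046711, chr17:27556497-27563674, plus strand) had group means of 846 to 991 CPM. It had 841, 726 and 970 CPM with miR-125b against 930, 692 and 930 in control at day 2, and 942, 645 and 1001 against 797, 583 and 1221 at day 10. The groups overlapped in all 4 conditions, and the average log2 fold change was 0.05 ± 0.13 (edgeR adjusted p 0.936). Its levels went with the replicate number: the 8 libraries numbered 2 had 583 to 850 CPM, those numbered 1 had 786 to 1038, and those numbered 3 had 930 to 1221. A near-identical copy, Hmga1b, was counted at 1.1 to 3.57 CPM, so reads of Hmga1 may have been divided between them.

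Hmga2 (ENSMUSG00000056758, chr10:120361275-120476469, minus strand), a let-7 target of fetal stem cells with 4 let-7 matches, had 1 to 17 counts per library. At day 10 it had 6, 12 and 6 counts with miR-125b against 2, 3 and 2 in control, without overlap. In the higher direction this held for 9.14% of tested genes. The log2 fold change was 1.80 ± 0.77 (edgeR adjusted p 0.224). It had 15, 17 and 5 against 10, 5 and 5 counts at day 2, where the groups overlapped (0.84 ± 0.66, edgeR adjusted p 1.00). Under both day 13 labels the groups overlapped too. Hmga2 was thus not called, and its counts allow only large differences to be seen.

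Igf1r (ENSMUSG00000005533, chr7:67952827-68233668, plus strand) had 119, 138 and 75.5 CPM with miR-125b and 157, 139 and 144 in control at day 2. The groups did not overlap, by a narrow margin in replicate 2, as in 6.22% of tested genes in the lower direction. The log2 fold change of -0.40 ± 0.18 did not pass the test (edgeR adjusted p 0.934). It became -0.19 without miR-125b replicate 3. At day 10 the groups overlapped and the log2 fold change was -0.0066 ± 0.18. It was 0.03 ± 0.18 in the libraries labelled day 13 continued and -0.35 ± 0.18 in those labelled withdrawal (edgeR adjusted p 0.613). The average effect was -0.18 ± 0.089 (edgeR adjusted p 0.433).

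Dis3l2 (ENSMUSG00000053333, chr1:86703808-87050095, plus strand) acts after LIN28 has marked a let-7 precursor for uridylation. At day 10 it had 23.6, 21.2 and 18.8 CPM with miR-125b and 22.7, 27.6 and 27.5 in control, overlapping groups with a log2 fold change of -0.29 ± 0.15 (edgeR adjusted p 0.330). In the libraries labelled withdrawal it had 21.2, 23.7 and 19.7 against 24.2, 28.7 and 23.7 CPM, or -0.25 ± 0.15 (edgeR adjusted p 0.683). The groups there did not overlap, by a narrow margin (23.67 against 23.71 CPM), as in 5.62% of tested genes in the lower direction. Day 2 gave -0.17 ± 0.15 and day 13 continued 0.07 ± 0.15. The average effect of -0.16 ± 0.075 was not called (edgeR adjusted p 0.406).

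Beside the seed matches, the day 10 log2 fold changes were -0.58 for Lin28b (8-base miR-125b match), -0.34 for Igf2bp3 and -0.29 for Dis3l2 (7-base matches). Of the members with higher counts, Igf1r and Hmga1 hold no miR-125b match and had -0.0066 and -0.0075. The order differed in other conditions. At day 2 Igf1r, without a match, had -0.40, a larger difference than those of Igf2bp3 (-0.32) and Dis3l2 (-0.17), which hold one. Under the withdrawal label Igf1r had -0.35, against -0.34 for Lin28b, -0.29 for Igf2bp3 and -0.25 for Dis3l2. The 2 low-count members without a match, Igf2bp2 and Hmga2, were above 0 at day 10. Whether matches and differences are related was not tested, since 7 genes chosen together are no sample of UTRs.

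**Figure D3:**
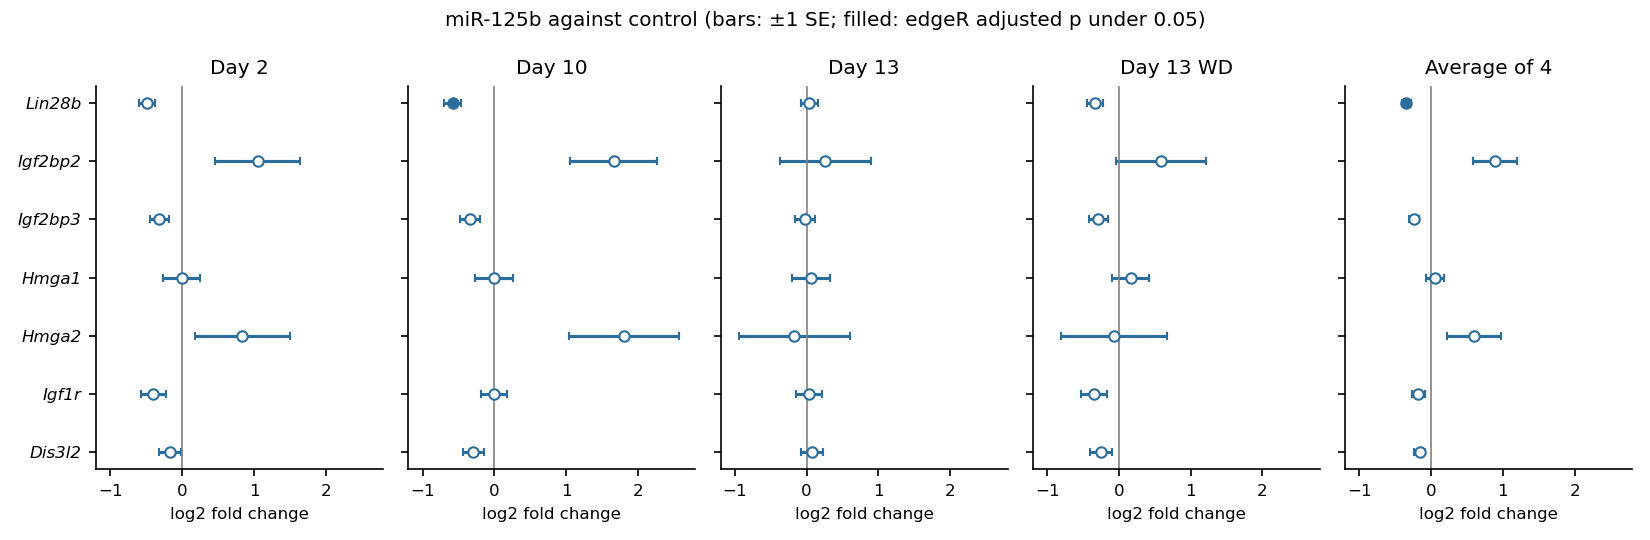
Log2 fold changes of the 7 tested members for miR-125b against control in each condition and averaged, with bars of 1 standard error. Filled points have an edgeR adjusted p under 0.05 in the model without the replicate block. The 2 filled points are Lin28b at day 10 (-0.58) and in the average (-0.34), and the wide bars belong to Igf2bp2 and Hmga2.

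The 2 day 13 labels were compared within each arm. In the miR-125b arm, the Lin28b libraries labelled withdrawal had 39.2, 37.1 and 38.6 CPM and those labelled continued 58.4, 60.8 and 50.9, without overlap, as in 4.45% of tested genes. The edgeR test called 0 of 7 members (0% of all genes, 1 member unadjusted), and the log2 fold change of Lin28b was -0.56 ± 0.11 with an adjusted p of 0.357. With the replicate block Lin28b was called (adjusted p 0.0435), beside 0.0522% of genes. DESeq2 called it as well (0.0157), among 7 of 13419 genes. Igf2bp3 (-0.18 ± 0.14) and Dis3l2 (-0.28 ± 0.15) also lay lower without overlap between groups, and neither passed the test. In the control arm the same labels gave 0 called members by edgeR and DESeq2, 0 unadjusted, beside 0% of all genes. Lin28b there differed by -0.19 ± 0.11. The difference between the arms in the comparison of the withdrawal with the continued label was -0.37 ± 0.16 for Lin28b (unadjusted p 0.0309, edgeR adjusted p 1.00), with 0 members called by edgeR or DESeq2 and 0% of genes. Its direction, like that of -0.56, holds only if the miR-125b day 13 labels are as given.

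From day 2 to day 10 no member was called in either arm. Lin28b differed by 0.05 ± 0.11 in the miR-125b arm and 0.13 ± 0.11 in control, and 0 of 7 members passed in edgeR or DESeq2, beside 0.224% and 0% of all genes, with 0 unadjusted. The difference between the arms in this step was -0.09 ± 0.16 for Lin28b, again with 0 called by either tool, 0 unadjusted and 0% of genes. From day 10 to the libraries labelled day 13 continued, 2 members rose in the miR-125b arm, beside 3.53% of genes called. An exchange of the labels would move this rise to the withdrawal group. Lin28b rose from 34.7 ± 2.07 to 56.7 ± 5.17 CPM, a log2 fold change of 0.71 ± 0.11 (edgeR adjusted p 0.00899). Igf2bp3 rose from 33.2 ± 2.01 to 47.2 ± 1.84 CPM, or 0.51 ± 0.14 (edgeR adjusted p 0.0473). The groups of both genes and of Dis3l2 (0.30 ± 0.15, edgeR adjusted p 0.264) did not overlap, as in 14% of genes in the higher direction. Igf2bp2 and Hmga2 were lower without overlap, as in 12.7% of genes, and were not called. The Lin28b call did not hold without miR-125b day 10 replicate 1 (adjusted p 0.0582) or 3 (0.0971), without day 13 replicate 1 (0.0578), or with these groups fitted by themselves (0.0559). That of Igf2bp3 did not hold in 5 of 6 fits that left out 1 library (adjusted p 0.0426 to 0.183). In the control arm 0 members were called by edgeR or DESeq2 and 0 unadjusted, beside 0.0224% of genes, and Lin28b differed by 0.09 ± 0.11.

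By label, the 9 miR-125b libraries of day 2, day 10 and day 13 withdrawal held 28.2 to 40.5 CPM of Lin28b, and the 12 control libraries 42.3 to 59.0. The 3 miR-125b libraries labelled day 13 continued held 50.9 to 60.8 CPM. Arid3a had a similar arrangement, with 26.7 to 41.3 CPM in the 9 libraries, 49.5 to 76.3 in control and 45.4 to 57.5 in the 3. Under the continued label Arid3a was still below control in 3 of 3 pairs by replicate number. Its log2 fold change there was -0.22 ± 0.16 (edgeR adjusted p 0.999), against 0.04 ± 0.11 for Lin28b. Igf2bp3 overlapped more, at 28.4 to 42.4, 36.4 to 66.2 and 45.2 to 48.9 CPM.

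**Figure D4:**
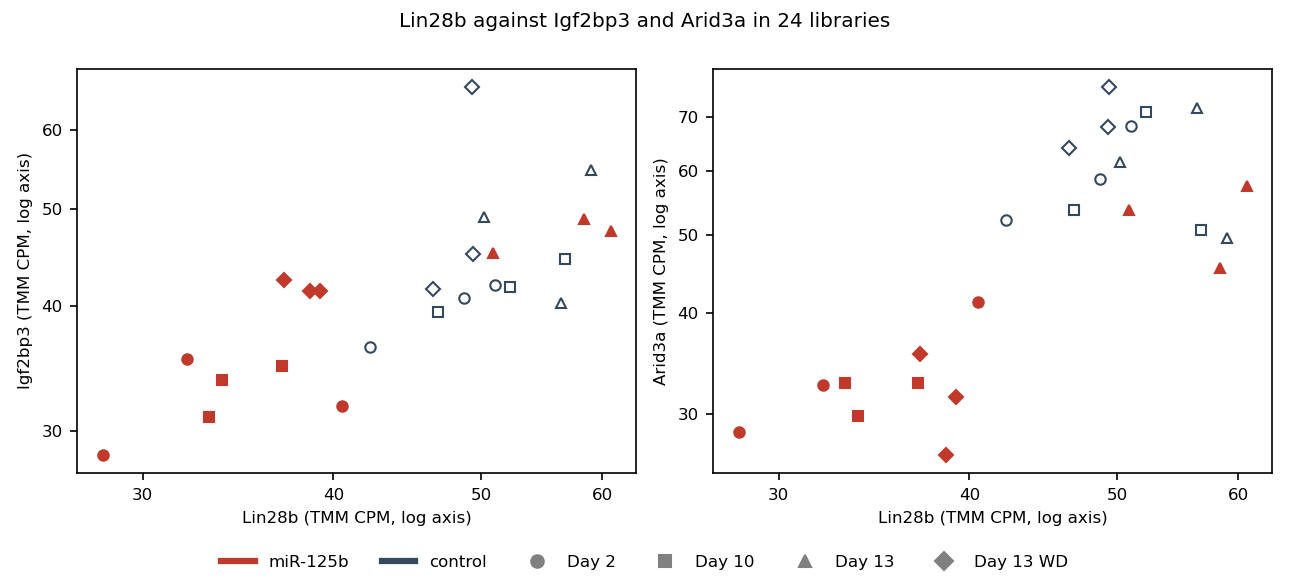
Each point is a library, with Lin28b on the horizontal axis and Igf2bp3 (left) or Arid3a (right) on the vertical axis, all in TMM CPM on log axes; red filled points are miR-125b, open points control, and symbols give the condition. The 9 miR-125b libraries of day 2, day 10 and day 13 withdrawal lie at 28.2 to 40.5 CPM of Lin28b, and the 3 labelled day 13 continued (red triangles) at 50.9 to 60.8 CPM.

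The genes most like Lin28b and the tested Igf2bp genes were named by their Pearson correlation of log2 CPM over the 24 libraries, among genes with an average log2 CPM of at least 2. These are descriptions, since the libraries share groups and replicate numbers. Lin28b was most like Galnt7 (r = 0.907), an enzyme that starts sugar chains on proteins, followed by 6030458C11Rik (0.896) and Mia2 (0.854). Igf2bp3 was most like Alkbh8 (0.910), a tRNA-modifying enzyme, and Mtr (0.907), the methionine synthase. Igf2bp2, at a few counts per library, was most like Armcx6 and Gmds (both 0.840) and Dap (0.835).

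The 6 lists of genes around the members were counted in the same comparisons. They were drawn from general knowledge, but with earlier results of these data known. Of 15 partners of LIN28 in let-7 processing, 13 were tested and edgeR and DESeq2 each called 0 in the 5 miR-125b comparisons, with 0 to 3 of them at an unadjusted edgeR p under 0.05. The terminal uridylyltransferases Tut4 (58.4 CPM) and Tut7 (85.0 CPM), which tag the let-7 precursors held by LIN28 proteins, had average log2 fold changes of -0.0078 ± 0.061 and -0.11 ± 0.077. Trim25, a cofactor of that step, had the lowest p of the list in the average, with -0.069 ± 0.046 (edgeR adjusted p 0.626). Of 25 let-7 target genes, 24 were tested, and Arid3a was called lower at day 10, in the libraries labelled withdrawal and in the average (-0.77 ± 0.081, edgeR adjusted p 5.8e-05). The longest 3′ UTR of Arid3a held 6 miR-125b matches, 2 of them in the 8-base form, and 2 let-7 matches. Among UTRs of like length 28.5% held a miR-125b match and 16.4% a let-7 match. Which of these seeds, if either, relates to its fall was not tested. DESeq2 called Arid3a at day 2 and in the libraries labelled withdrawal. It called Arid3a, Cdk6 and Myc at day 10, and Arid3a, Arid3b and Cdk6 in the average. Of all 13419 tested genes it called 3 at day 2, 516 at day 10, 95 at withdrawal and 357 in the average. With the block, edgeR called Arid3a, Dna2, Myc and Rrm2 lower and Cdk6 higher at day 10, 5 of 24 beside 8.63% of all genes. It called Arid3a and Arid3b lower in the libraries labelled withdrawal (1.86% of all genes). In the average it called 6 of 24 beside 6.39%, with Arid3a, Arid3b, Irs2 and Map4k3 lower and the cell cycle genes Ccnd1 and Cdk6 higher. Cdk6 had 0.43 ± 0.12 there (edgeR adjusted p 0.0945, and 0.000196 with the block). The list's median log2 fold change was -0.19 at day 10, with 18 of 24 genes below 0, and -0.078 in the average, with 19 below 0. Medians over all tested genes were 0.0042 and -0.0086.

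Of 29 IGF signalling genes, 21 were tested and edgeR and DESeq2 each called 0, with 1 to 3 genes per comparison at an unadjusted edgeR p under 0.05. With the block, Irs2 and Shc1 were called lower and Igfbp4 higher in the average, 3 of 21 beside 6.39% of all genes, and Igfbp4 was higher at day 10 as well. The adaptor Shc1 had an average log2 fold change of -0.17 ± 0.052 (edgeR adjusted p 0.123, and 0.0126 with the block). The ligand gene Igf2 reached at most 1 count in a library, and Igfbp1, Igfbp2 and Igfbp3 were at 0 in every library. Of 12 partners and client mRNAs of the IGF2BP proteins, 10 were tested and edgeR called 0, with 1 to 4 at an unadjusted p under 0.05. DESeq2 and the block called Myc lower at day 10 (-0.48 ± 0.14, edgeR adjusted p 0.0957, and 0.0261 with the block). Elavl1, an mRNA-stabilising protein, had 0.14 ± 0.051 (edgeR adjusted p 0.213). Of 15 imprinted and fetal growth genes 8 were tested and edgeR and DESeq2 each called 0, with 0 at an unadjusted edgeR p under 0.05 in any of the 5 comparisons. Grb10, an imprinted inhibitor of receptor signalling, had an average log2 fold change of -0.82 (edgeR adjusted p 0.547). The imprinted RNA H19 reached at most 2 counts. Of 10 other HMG chromatin protein genes 9 were tested and edgeR called 0, with 0 to 2 at an unadjusted p under 0.05. DESeq2 and the block called Hmgb2 lower at day 10 and Hmgn1 higher in the average. Hmgn1, a nucleosome-binding protein, had 0.19 ± 0.052 (edgeR adjusted p 0.0945, and 0.0201 with the block).

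From day 10 to the libraries labelled day 13 continued in the miR-125b arm, where Lin28b and Igf2bp3 rose, let-7 targets Arid3a, Rrm2 and Dna2 rose too, 3 of 24 tested. Their log2 fold changes were 0.72 ± 0.16 (SE, edgeR adjusted p 0.0276) for Arid3a, 0.46 ± 0.11 (edgeR adjusted p 0.0364) for Rrm2 and 0.54 ± 0.13 (edgeR adjusted p 0.0320) for Dna2. Syncrip, an RNA-binding protein on both the LIN28 partner list and the IGF2BP partner list, the helicase Dhx9 and the chromatin protein Hmgb1 rose as well, by 0.51 ± 0.11 (edgeR adjusted p 0.0262), 0.60 ± 0.12 (edgeR adjusted p 0.0191) and 0.30 ± 0.082 (edgeR adjusted p 0.0442) on the log2 scale. These 6 genes were also called with the block and in DESeq2. None of the 6 was called with only the groups compared, or without miR-125b day 10 replicate 1 or 3 or day 13 continued replicate 1 or 2, and without day 13 continued replicate 3 Dhx9 alone was. No gene of the 6 lists was called lower there without the block, and with it Igfbp4 and Sgce were. The block called more listed genes higher: 4 of 24 let-7 targets, 3 of 10 IGF2BP partners and 3 of 9 HMG genes. It also called 2 of 13 LIN28 partners and 1 of 21 IGF signalling genes higher. All genes called in that step came to 293 higher and 181 lower. With the block they came to 870 higher and 930 lower, 13.4% of genes tested. With only the groups compared 0 were higher and 2 lower. No gene was called without day 10 replicate 3 or without day 13 continued replicate 1, 9 were called without day 10 replicate 1, 19 without day 13 continued replicate 2 and 136 without its replicate 3, and 1083 without day 10 replicate 2.

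**Figure D5:**
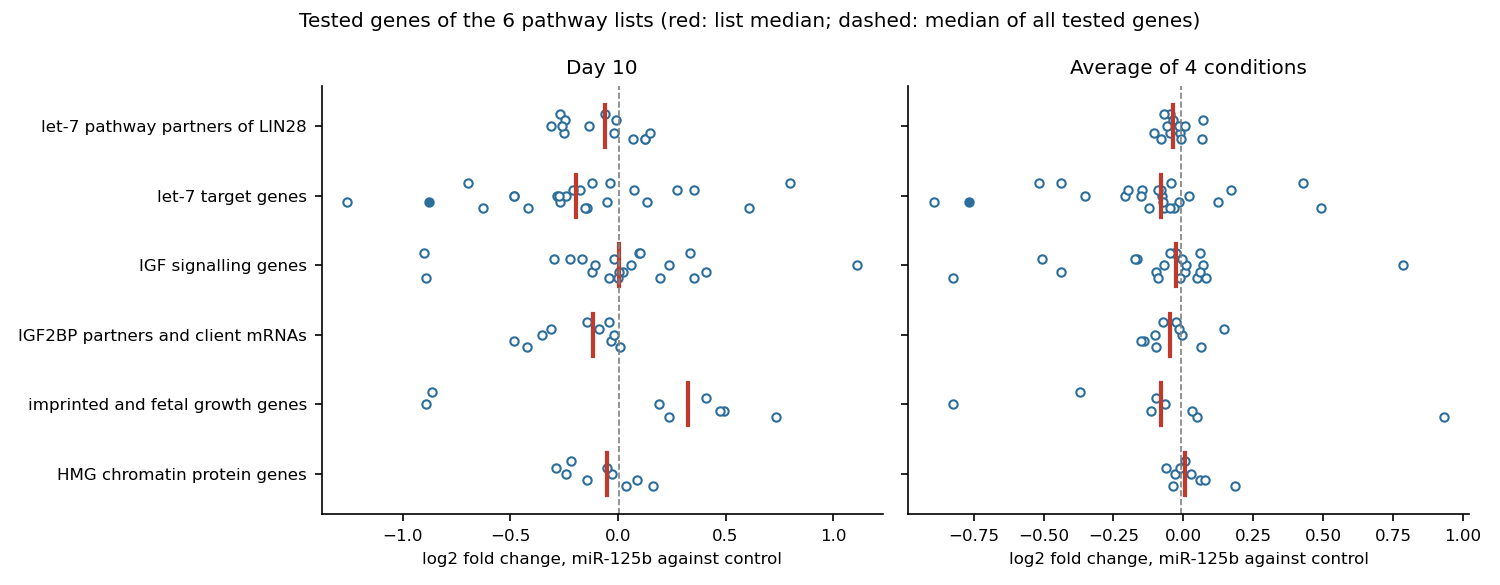
Each point is a tested gene of one of the 6 lists, placed by its log2 fold change for miR-125b against control at day 10 (left) and averaged over the 4 conditions (right). Filled points have an edgeR adjusted p under 0.05 in the model without the replicate block. Arid3a is the 1 filled point in each panel, and the median of the let-7 targets lies at -0.19 and -0.078.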

How the data were processed

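RNA was sequenced from 24 libraries of mouse fetal liver cells. The authors deposited whole-number read counts per gene, 1 column per library, used here as deposited. The submitters' processing notes name fastp, HISAT2 2.0.5, featureCounts and the mm10 genome; strandedness and annotation release are not given in the sources used here. Each column was matched to its library through the labels. Symbols, positions and UTRs came from GENCODE M21 (GRCm38), and microRNA sequences from RefSeq.

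Genes were filtered with filterByExpr in edgeR 4.0.16 (R 4.3.3), which left 13419. One quasi-likelihood model (TMM scaling, robust estimation) with 8 group coefficients and 16 residual degrees of freedom gave 13 contrasts, two-sided, whose p-values were adjusted across these genes by the Benjamini-Hochberg method. Standard errors were derived from the F statistic. The steps were tested on simulated data for the day 10 contrast, drawn without an effect of the replicate number. That test does not check the fit for libraries that deviate together by number, as these do. Alternatives were the replicate number as a block, DESeq2 1.42.0, its size factors, no filter, only the groups compared, a newer dispersion estimate, and leaving out each library.

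Deviations from group means correlated at 0.163 to 0.781 in all 84 pairs of libraries with the same replicate number (median 0.475) and at a median of -0.30 between numbers. The numbers therefore pair the libraries, although the labels do not say what a number shares. The main model leaves this pairing out, and its common dispersion was 0.0591, against 0.0169 with the block. Calls made or lost without the block thus come from a model that counts the shared deviations as spread. The block is quoted where it changes a call of a member or of a listed gene in a comparison described. No replicates agreed within sampling noise.

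The members and all lists were chosen with earlier results of these data known. Genes named beyond the members were those called in a list, or otherwise the list's gene with the lowest p in the average, and the 3 genes whose log2 CPM correlated most with Lin28b and each tested Igf2bp gene. One of these is not reported here. Other genes named, among them those called only with the block or DESeq2, those of the step from day 10 to day 13 continued, marker genes, Tut4, Tut7, Lin28a, Igf2, Igfbp1, Igfbp2, Igfbp3 and H19, were chosen after their values were seen.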

Additional observations from a re-analysis of the deposited data

How the results depend on the processing

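The number of members called changed in 4 of the 13 comparisons. With the replicate block, it was 2 at day 10, 3 in the average and 1 between the day 13 labels in the miR-125b arm, in place of 1, 1 and 0. DESeq2 gave 2 in the average and 1 between the day 13 labels. From day 10 to day 13 continued in the miR-125b arm, 2 members were called, 1 with DESeq2 size factors (RLE), 1 without a filter and 0 with only the groups compared. At day 10 that last setting gave 0 in place of 1. It has fewer samples; for the other settings the cause was not tested. Without single libraries the number ran from 0 to 1 at day 10, from 1 to 2 in the average and from 0 to 2 from day 10 to day 13 continued. Shc1 and Hmgn1 passed the threshold in the average with the block, and Hmgn1 also in DESeq2 (adjusted p 0.0356). The block changed no other call of a member. Some directions turned, all of differences that were not called. For Igf2bp2 the value of 0.58 at withdrawal became -0.058 without miR-125b replicate 2, and 0.26 at day 13 continued became -0.099 without control replicate 1. For Hmga1 the turned values were 0.00087 at day 2 without a filter, 0.023 at day 10 with the block, and -0.0081 in the average over day 2 and day 10 alone. Without single libraries the log2 fold change of Hmga1 ran from -0.14 to 0.090 at day 2, -0.23 to 0.32 at day 10, -0.086 to 0.31 at day 13 continued, -0.012 to 0.42 at withdrawal, and -0.0035 to 0.13 in the average. At day 13 continued Lin28b ran from -0.025 to 0.11, Igf2bp2 from -0.099 to 0.63, Igf2bp3 from -0.14 to 0.084, Hmga2 from -0.51 to 0.24, Igf1r from -0.13 to 0.12 and Dis3l2 from -0.063 to 0.29. At withdrawal Igf2bp2 ran from -0.058 to 1.21 and Hmga2 from -0.60 to 1.12, and at day 10 Igf1r ran from -0.13 to 0.14. For day 10 against day 2, Lin28b ran from -0.065 to 0.19 in the miR-125b arm, and from -0.20 to 0.055 for the difference between the arms. Counts of 1 to 17 per library limit Igf2bp2 and Hmga2.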
